A study of Mus musculus with 44 samples.

Results

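The members described here are the mature mouse miRNAs whose names begin with miR-297, miR-466, miR-467 or miR-669, the repeat families tied to a large intron of the gene Sfmbt2. The deposited table of miRNA counts lists 1978 mature miRNAs, 80 of them by these names, and the 76 with at least 1 count over the 44 libraries were kept. Rows that held the same counts in every library cannot be told apart and were taken as 1 observation, which merged 10 rows and left 66 members. The members were chosen by name and selected on their total count, so their levels are a description. The 4 names at 0 counts were miR-467f, miR-467g, miR-669g and miR-669i, and a count of 0 among 181716379 miRNA counts allows a mean level of up to 0.0165 CPM (counts per 1000000 miRNA counts; 3 counts in all, counting error only). Just inside the threshold were 7 members with a single count each: miR-466l-3p, miR-466l-5p, miR-669h-3p, miR-669j, miR-669k-3p, miR-669l-3p and miR-669n.

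A miRNA is a short RNA cut from one arm (5p or 3p) of a hairpin transcript, and it represses mRNAs that pair with its seed, bases 2 to 8. Sfmbt2 encodes a Polycomb-type protein and is imprinted, with expression from the paternal allele in the placenta, where its intronic miRNA cluster is abundant and needed for normal growth. The cluster arose by tandem duplication in rodents, and many of its products contain runs of alternating U and G or C and A. Among the members, miR-467 has been linked to the control of thrombospondin-1 by glucose, and miR-669a to the restraint of muscle differentiation.

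All libraries came from C57Bl/6J mice and from the hypothalamus, a part of the forebrain that controls appetite and metabolism. AM132 (16 libraries) were mice made obese by 11 weeks of high-fat diet and treated with a 16-nt oligonucleotide of locked nucleic acid (LNA) complementary to miR-132, and AM608 (16 libraries) were mice fed likewise that received a control LNA of 15 nt, complementary to miR-608 of primates. Both were injected intravenously at 3.3 mg/kg on 3 consecutive days, with tissue taken 7 days later. RCD (12 libraries) were lean, age-matched mice on regular chow. Injection is not mentioned for RCD, and in comparisons with it the diet and the injection cannot be told apart. The age and sex are not given, and no label says outright that each library is a different animal, so the p-values measure the spread between these libraries. The labels name 4 batches without saying what a batch was: AM132 had 4 libraries in batch 1, 8 in batch 2 and 4 in batch 3, AM608 had the same numbers, and RCD had 4 in batch 2 and 8 in batch 4.

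Depth ran from 3020192 to 5997234 miRNA counts per library (median 3996734). The target of the oligonucleotide, miR-132-3p, had a median of 734 CPM in AM132 (range 63.6 to 1352) and 958 CPM in AM608 (range 546 to 1477), a log2 difference of -0.46 ± 0.16 (SE) that did not pass the edgeR test (adjusted p = 0.593). All 5 miRNAs taken as neuron markers (miR-9-5p, miR-124-3p, miR-128-3p, miR-7a-5p and miR-138-5p) were detected, with a summed level between 186117 and 400687 CPM. CPM values are scaled by TMM, which sets the libraries on a common scale by a trimmed mean of their log ratios.

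The sequence table of RefSeq (GRCm38.p6) held the mature sequence of 6 of the 76 member rows, and each of these 6 lies outside Sfmbt2. They are shown because no other member sequence was available, so the sequences of the abundant members were not examined. Capitals mark the seed.
miR-466i-3p: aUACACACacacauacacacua
miR-466q: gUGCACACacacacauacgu
miR-466k: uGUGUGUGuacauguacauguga
miR-466j: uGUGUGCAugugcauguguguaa
miR-467h: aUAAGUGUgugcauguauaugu
miR-669n: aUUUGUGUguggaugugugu
miR-574-5p, outside the families: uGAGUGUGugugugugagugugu

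The first pair is of the CA type and the other 4 members are of the UG type. The longest alternating C and A run was 12 bases in miR-466q and 11 in miR-466i-3p, and the longest alternating U and G run was 9 bases in miR-466k, 8 in miR-669n and 7 in miR-466j and miR-467h. The letters ACACAC, searched on the RNA strand alone, occurred in both members of the first pair and in 11 of the 1679 mature miRNAs of the sequence table (0.655%). The letters UGUGUG occurred in the other 4 members and in 28 of the 1679 (1.67%). No seed was shared among the 6, and 1 was shared with a miRNA outside the families: miR-467h and miR-668-5p both have UAAGUGU. miR-574-5p has a longer alternating U and G run of 13 bases.

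These 6 were minor members. miR-466i-3p, at chr13:17747552-17747573 (plus strand) in an intron of Cdk13 on the opposite strand, had 166 counts in 40 libraries. miR-466q, at chr3:28419988-28420007 (plus) in an intron of Tnik on the same strand, had 88 counts in 37 libraries. miR-466k, at chr3:85467396-85467418 (plus) in an intron of Gm37240 on the opposite strand, had 62 counts, and miR-466j, at chr10:60960802-60960824 (plus) in no other gene, had 17. miR-467h at chr9:115381898-115381919 (plus), in no other gene, had 4 counts, and miR-669n at chr3:115979905-115979924 (plus), in an intron of Slc30a7 on the opposite strand, had 1. miR-574-5p, at chr5:64970328-64970350 (plus), was detected in all 44 libraries with 686 counts, more than any of the 6.

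The GENCODE vM21 annotation of GRCm38 placed Sfmbt2 at chr2:10370510-10595253 on the plus strand. The annotation held 81 hairpin genes named for the 4 families, of which 71 lay in introns of Sfmbt2 on its own strand: 5 of miR-297, 23 of miR-466, 14 of miR-467 and 29 of miR-669. They spanned 51.6 kb, from 10466663 to 10518279. In 2 of the 7 annotated transcripts, all 71 lay in 1 intron of 62.5 kb, which followed exon 10 or exon 11 of 23. Another 48 miRNA genes that the names do not take lay inside Sfmbt2, and the other 10 family hairpins lay elsewhere. The hairpins of 55 members were all in Sfmbt2, and those members held 97.3% of the family counts. A further 7 members came only from elsewhere (0.683%), 2 had hairpins in both places (0.183%), and the 2 arms of miR-466a were matched to no annotated gene by name (1.87%). A gene named Mir466, without a letter, is among the 71 in Sfmbt2, at chr2:10507918-10507990. Whether it is the hairpin of miR-466a was not checked, so 97.3% may understate the part from Sfmbt2.

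**Figure D1:**
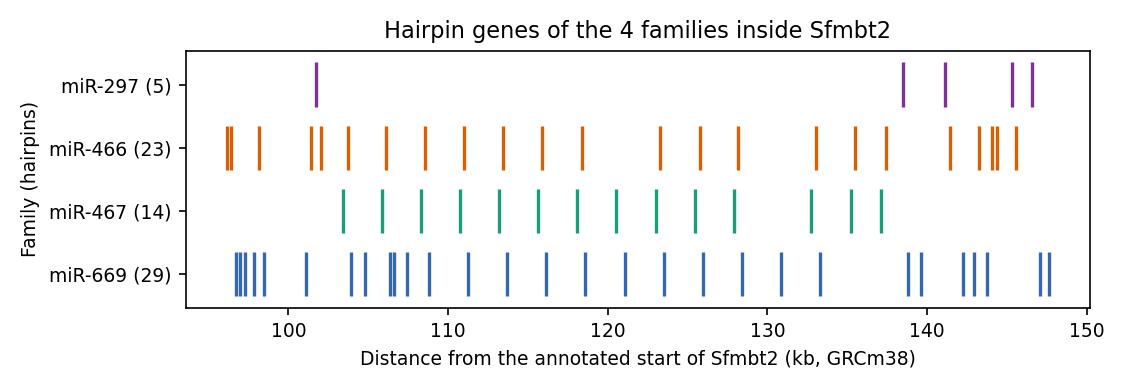
Position of the 71 family hairpins inside Sfmbt2, in kb from its annotated start (GRCm38), with 1 row per family and 1 tick per hairpin gene. Hairpins of miR-466, miR-467 and miR-669 alternate along most of the 51.6 kb span, and 4 of the 5 miR-297 hairpins lie in its last part.

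The families were rare in the hypothalamus, and a few 5p arms made up most of their counts. Together the 66 members had 56263 counts, 0.0310% of all miRNA counts. The miR-467 members held 42.3% of these, miR-669 38.1%, miR-466 17.3% and miR-297 2.29%. Only rows of identical counts were merged, and rows of nearly equal counts, such as miR-466a-3p and miR-466e-3p, entered in full. Any reads they share count more than once in these totals and in the summed levels below. The first 3 members held over 50% of the counts and 20 members held over 90%. Of the 66, 26 were detected in every library and 28 had fewer than 44 counts in all, below 1 count per library on average.

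The most abundant member was the shared row of miR-467a-5p and miR-467b-5p, with 16287 counts (28.9% of the family) and a level of 88.1 ± 15.5 CPM (SD, n = 44). Its counts per library ran from 169 to 647 (median 363), and its table entry lists 11 precursors. miR-669c-5p followed with 9564 counts and 52.0 ± 9.88 CPM. miR-467e-5p reached 25.9 ± 4.74 CPM from 4759 counts. The shared row of miR-669a-5p and miR-669p-5p, with 14 precursors listed, reached 17.04 ± 7.03 CPM from 3200 counts. These 4 were the members with a mean of at least 10 CPM, and the ranges of neighbours in this order overlapped. None of these levels was divided by length.

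The next 8 by level lay close together. The shared row of miR-669a-3p and miR-669o-3p had 9.88 ± 3.40 CPM, miR-669f-3p 8.90 ± 2.59, miR-466c-5p 8.69 ± 2.91 and miR-669h-5p 8.04 ± 2.59 (SD, n = 44 each). miR-467c-5p had 6.88 ± 1.78 CPM. miR-466e-3p (5.72 ± 1.84 CPM), the shared row of miR-466c-3p and miR-466p-3p (5.65 ± 1.83) and miR-466a-3p (5.46 ± 1.798) closed the list. The last 3 are nearly 1 observation: miR-466e-3p and miR-466c-3p differed by at most 2 counts in any library and were equal in 34, and miR-466a-3p and miR-466e-3p differed by at most 4. Likewise miR-466e-5p (744 counts) and miR-466b-5p (739 counts) were equal in 40 libraries. How reads that match several members were assigned is not given in the sources used here.

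Both arms of a hairpin name were listed for 33 names, 24 of them with at least 440 counts. The 5p arm was the larger in 17 of these 24 and the 3p arm in 7, and over all members 5p rows held 82.7% of counts. miR-669c had 9564 counts on its 5p arm and 11 on its 3p arm, miR-467e 4759 and 27, miR-669h 1484 and 1, and miR-466o 855 and 4. The 3p arm was the larger for miR-466a (27 on 5p, 1027 on 3p), miR-466d (133 and 843) and miR-669f (252 and 1659). Shared rows count fully for each name, so arms on a shared row are not separate measurements. Those rows join miR-467a-5p with miR-467b-5p, miR-669a-5p with miR-669p-5p, miR-669a-3p with miR-669o-3p, miR-466c-3p with miR-466p-3p, miR-467a-3p with miR-467d-3p, miR-466d-5p with miR-466n-5p, miR-466f-5p with miR-466f, miR-669d-3p with miR-669d-2-3p, and the 3p arms of miR-297a, miR-297b and miR-297c.

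**Figure D2:**
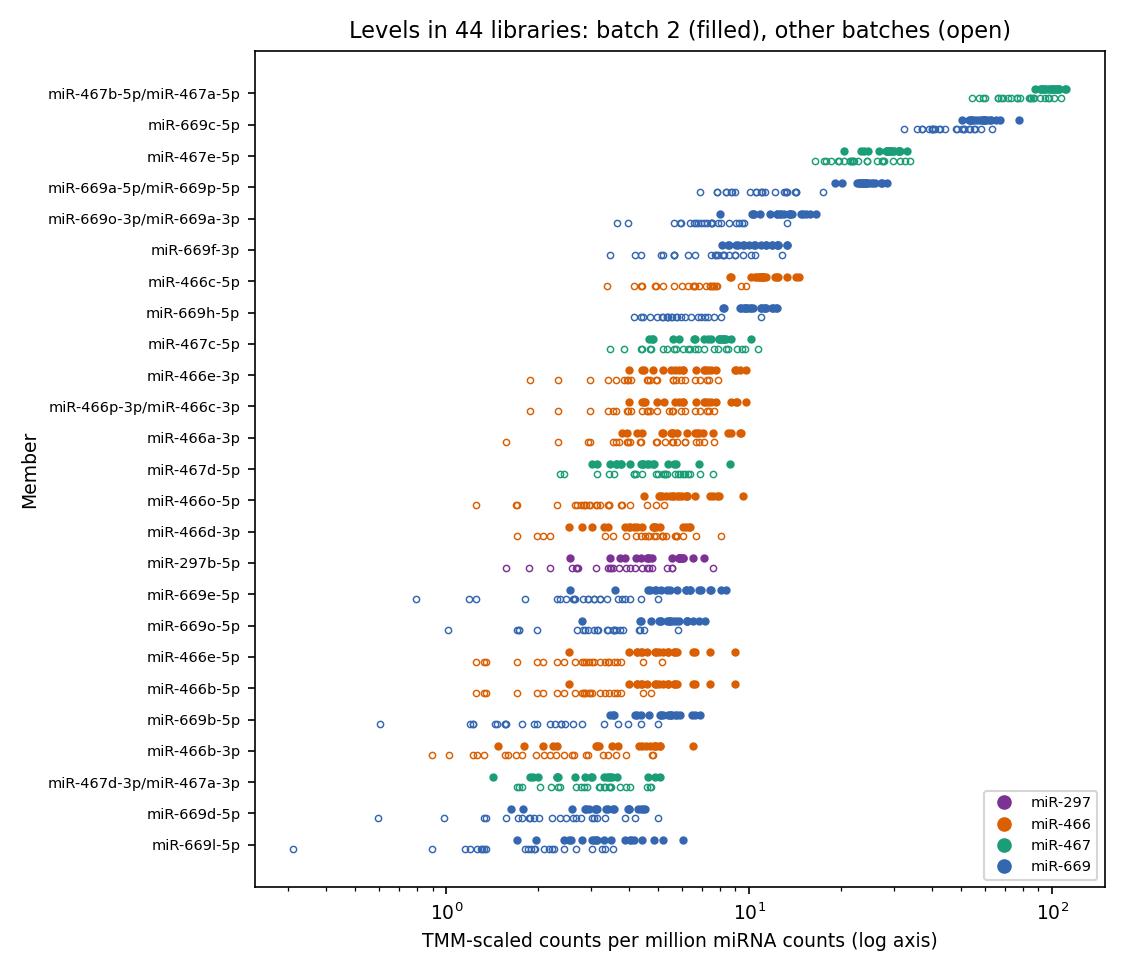
Levels of the 25 members with at least 440 counts in each of the 44 libraries, as TMM-scaled CPM on a log axis, with filled points for the 20 libraries of batch 2, open points for the other 24, and colours for the 4 families. The order by level runs from 88.1 CPM on average for miR-467a-5p to under 3 CPM, and filled points lie to the right for most members.

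Treatment was compared first. AM132 and AM608 differ in the oligonucleotide given, in mice of the same diet. Of the 66 members, 24 passed the filter on low counts and 42 did not, and 0 of the 24 passed the edgeR quasi-likelihood test at an adjusted p of 0.05, where 0.358% of all 559 tested miRNAs did. No member had an unadjusted p below 0.05, against 4.11% of all tested miRNAs, and DESeq2 also called 0. The median log2 fold change was -0.03 over the 24 members and 0.00 over all tested miRNAs.

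The leading member, miR-467a-5p with miR-467b-5p, had a mean of 89.0 ± 14.1 CPM in AM132 (range 66 to 111) and 86.7 ± 19.4 CPM in AM608 (range 54.2 to 110; SD, n = 16 each). The groups overlapped over most of their range, and the log2 difference was 0.04 ± 0.08 (SE; edgeR adjusted p = 0.983). miR-669c-5p had 54.0 ± 10.2 CPM in AM132 and 51.8 ± 10.9 in AM608, a log2 difference of 0.07 ± 0.08 (edgeR adjusted p = 0.955). The members of smallest p were miR-669e-5p (-0.23 ± 0.16), miR-669l-5p (0.22 ± 0.18) and miR-297b-5p (0.18 ± 0.15), each with an edgeR adjusted p of 0.955. Values of all 24 lay between -0.23 and 0.22. In a test of whether the treatment difference itself varied among the 3 batches, 0 of 24 members passed (smallest edgeR adjusted p = 0.890), as did 0% of all 559 miRNAs.

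Obese mice were compared with lean mice inside batch 2, the one batch that holds both. The contrasts AM608 minus RCD and AM132 minus RCD share the 4 RCD libraries, and the values of each are given for itself. In AM608 minus RCD, 0 of 27 tested members passed the edgeR test, as did 0% of 599 miRNAs. The median log2 fold change was -0.07 over the members and 0.00 over all. By unadjusted p, 1 member was below 0.05, where 5.01% of all tested miRNAs were, and DESeq2 called 0 members. That member, miR-669o-5p, had 4.33 ± 1.12 CPM in RCD (SD, n = 4) and 6.16 ± 0.69 CPM in AM608 (SD, n = 8), a log2 difference of 0.50 ± 0.14 (SE; edgeR adjusted p = 0.780).

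The leading members were close in lean and obese mice of that batch. miR-467a-5p with miR-467b-5p had 99.0, 87.8, 105 and 92.7 CPM in the 4 RCD libraries, against 92.3 to 110 CPM (median 102) in AM608 and 91.4 to 111 CPM (median 99.1) in AM132. The log2 difference was 0.08 ± 0.06 for AM608 minus RCD (edgeR adjusted p = 0.843) and 0.09 ± 0.06 for AM132 minus RCD (edgeR adjusted p = 0.635). miR-669c-5p had 59.9, 55.4, 59.7 and 53.7 CPM in RCD, with log2 differences of 0.09 ± 0.08 for AM608 and 0.11 ± 0.08 for AM132 (edgeR adjusted p = 0.901 and 0.688). For both members the 3 groups overlapped.

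In AM132 minus RCD, 0 of 27 members passed, as did 0% of 599 miRNAs, and DESeq2 called 0 members. The median log2 fold change was -0.15 over the members and 0.01 over all. Unadjusted p was below 0.05 for 3 members, with 9.85% of all tested miRNAs below it. These were miR-466b-5p and miR-466e-5p (both -0.47 ± 0.19, with nearly the same counts) and miR-669a-5p with miR-669p-5p (0.18 ± 0.09), each with an edgeR adjusted p of 0.488. miR-466b-5p had 8.97, 4.91, 7.41 and 5.02 CPM in RCD and 2.53 to 5.66 CPM in the 8 AM132 libraries, so the groups overlapped.

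The members differed between batches. In the AM libraries, 20 of the 24 tested members were higher in batch 2 than in batch 1 and 0 were lower in the edgeR test, where 34.2% of the 559 tested miRNAs were higher and 33.5% lower. The median log2 fold change was 0.66 over the members and -0.01 over all. The low-count filter took no account of batch, and batch 2 holds 16 of the 32 AM libraries. A miRNA could thus pass it through batch 2 alone, which favours calls of higher among the 24 as among the 559. With no filter on low counts, 23 of 65 members were higher and 0 lower, where 222 of 1503 miRNAs were higher and 208 lower. In 5 of the 24 the libraries did not overlap, all of them higher in batch 2, and 12% of all tested miRNAs were so separated in that direction. Batch 3 against batch 1 gave 0 of 24 members past the edgeR test (0.358% of all miRNAs), 3 with an unadjusted p below 0.05 (12.3% of all), 0 with DESeq2, and a median of 0.04.

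By family, all 10 tested miR-669 members were called higher in batch 2, and 6 of 8 miR-466 members. So were 3 of 5 miR-467 members and the single miR-297 member. By arm, 16 of 17 tested 5p members were called higher and 4 of 7 tested 3p members. Over all 559 tested miRNAs the share was 34.2%. Within miR-466, all 4 tested 5p members were called higher, with log2 fold changes from 0.90 to 1.08, and 2 of 4 tested 3p members. Called or not, 22 of the 24 tested members had a positive log2 fold change. Rows of nearly equal counts in every library make these tallies less than independent.

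miR-669a-5p with miR-669p-5p had the smallest p. Its level was 20.2 to 28.4 CPM in the 16 AM libraries of batch 2 (median 24.4) and 6.87 to 14.2 CPM in the 8 of batch 1 (median 9.86). The libraries of batch 1 were 11.0, 6.87, 14.2 and 12.1 CPM in AM132 and 7.79, 8.76, 8.71 and 13.0 CPM in AM608, so no library of batch 1 reached the lowest of batch 2. The log2 difference was 1.24 ± 0.13 (SE; edgeR adjusted p = 3.01e-10). In batch 3 the level was 8.36 to 17.5 CPM in AM132 and 7.81 to 14.3 CPM in AM608, again below every library of batch 2.

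Among the other called members were 5p arms of miR-466 and further miR-669 members. Also called were miR-297b-5p (0.78), miR-466e-3p and the shared row of miR-466c-3p and miR-466p-3p. miR-466o-5p rose by 1.08 ± 0.15, from a median of 2.93 CPM in batch 1 (range 1.25 to 4.03) to 5.93 CPM in batch 2 (range 4.50 to 7.96; edgeR adjusted p = 1.7e-07). miR-669h-5p rose by 0.89 ± 0.12, from 5.46 CPM (range 4.38 to 7.15) to 10.2 CPM (range 8.24 to 12.4; edgeR adjusted p = 1.82e-07). miR-466c-5p rose by 0.90 ± 0.13, from 6.68 CPM (range 3.39 to 7.63) to 11.1 CPM (range 8.72 to 14.6; edgeR adjusted p = 7.41e-07). In these 3 and in miR-669o-5p the 2 batches did not overlap. miR-669a-3p with miR-669o-3p rose by 0.88 ± 0.16 and overlapped, with 5.63 to 8.60 CPM in batch 1 and 8.01 to 16.6 CPM in batch 2. miR-669e-5p rose by 1.08 ± 0.21, miR-466b-5p by 0.93 ± 0.16 and miR-466e-5p by 0.91 ± 0.17.

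Of the 4 tested 5p members of miR-467, 3 passed, and miR-669c-5p passed as well. miR-467a-5p with miR-467b-5p had a median of 69.7 CPM in batch 1 (range 57.3 to 97.1) and 100 CPM in batch 2 (range 91.4 to 111), and only the highest library of batch 1 fell within batch 2. The log2 difference was 0.45 ± 0.09 (edgeR adjusted p = 0.000116). miR-467e-5p rose by 0.48 ± 0.09 (edgeR adjusted p = 3.79e-05) and miR-669c-5p by 0.41 ± 0.10 (edgeR adjusted p = 0.000414). The 4 members that did not pass were miR-466a-3p (0.36 ± 0.18), miR-467d-5p (0.11 ± 0.19), the shared row of miR-467a-3p and miR-467d-3p (-0.01 ± 0.20) and miR-466d-3p (-0.15 ± 0.17).

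**Figure D3:**
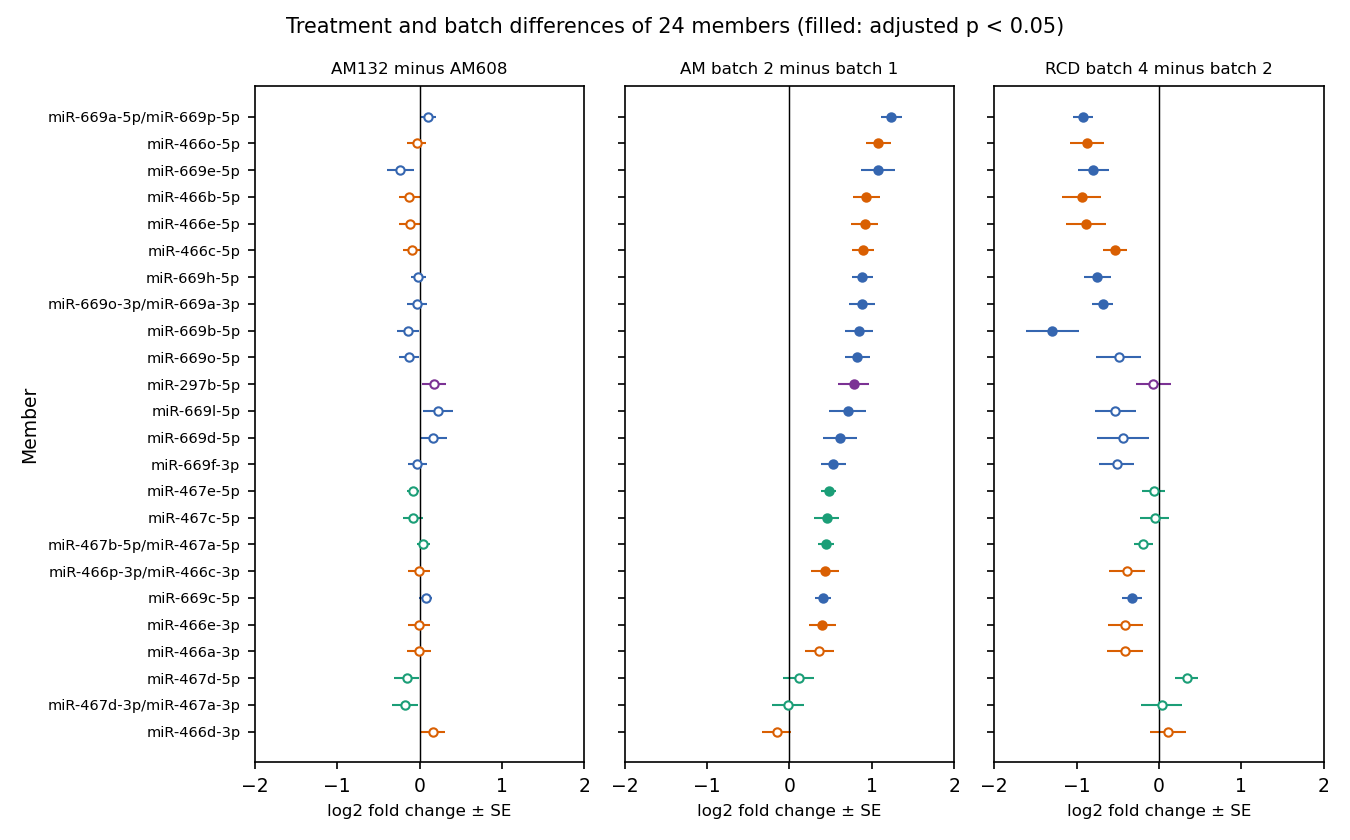
log2 fold changes with their SE for the 24 members tested in AM libraries, in 3 panels: AM132 minus AM608, AM batch 2 minus batch 1, and RCD batch 4 minus batch 2, with filled points for an adjusted p below 0.05 and colours by family (purple miR-297, orange miR-466, green miR-467, blue miR-669). The first panel centres on 0 with no filled point, the middle panel has 20 filled points to the right, and the last has 10 to the left.

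The lean libraries differed by batch as well. Among the 12 RCD libraries, 10 of 26 tested members were lower in batch 4 than in batch 2 and 0 were higher in the edgeR test, where 28.4% of the 598 tested miRNAs were lower and 26.9% higher. The median log2 fold change was -0.46 over the members and -0.02 over all. In 6 members the libraries did not overlap, all lower in batch 4, as in 18.6% of all tested miRNAs. All 10 had also been called higher in batch 2 of the AM libraries, 100% of the RCD list and 50% of the 20 AM members. Of the 24 members tested in both, 20 had been called in the AM libraries, so most of any 10 drawn from them would be shared. Over the 556 miRNAs tested in both, 142 were called in these directions in both, 86.1% of the 165 lower in RCD batch 4 and 74.7% of the 190 higher in AM batch 2. The 2 contrasts use different libraries, and batch 2 is on 1 side of each.

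miR-669a-5p with miR-669p-5p again had the smallest p, at 23.4, 19.2, 23.98 and 22.9 CPM in the 4 RCD libraries of batch 2 and 10.5 to 14.2 CPM (median 11.1) in the 8 of batch 4, with no overlap. It fell by 0.92 ± 0.12 on the log2 scale (edgeR adjusted p = 1.13e-05). miR-669a-3p with miR-669o-3p had 14.8, 12.4, 13.6 and 12.6 CPM in batch 2 and 6.66 to 9.57 CPM in batch 4, and fell by 0.68 ± 0.13 (edgeR adjusted p = 0.000339). miR-669b-5p fell by 1.29 ± 0.32 (edgeR adjusted p = 0.00324), with 5.50, 5.37, 5.46 and 6.88 CPM in batch 2 and 0.603 to 4.99 CPM in batch 4. All 3 were thus separated by batch.

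Of the other called members, miR-466b-5p fell by 0.93 ± 0.24, miR-466e-5p by 0.89 ± 0.24, miR-466o-5p by 0.87 ± 0.21, miR-669e-5p by 0.80 ± 0.19, miR-669h-5p by 0.75 ± 0.16 and miR-466c-5p by 0.54 ± 0.14. All 4 tested 5p members of miR-466 were among them. miR-669c-5p fell by 0.33 ± 0.12 (edgeR adjusted p = 0.0306), and its adjusted p was 0.0564 without RCD 10, 0.0886 without RCD 11, 0.0861 without RCD 9 and 0.0532 without RCD 2. None of the 5 tested miR-467 members passed. miR-467a-5p with miR-467b-5p had 66.3 to 107 CPM in batch 4, a range that holds all 4 values of batch 2, and its difference was -0.19 ± 0.12 (edgeR adjusted p = 0.178). miR-467e-5p differed by -0.07 ± 0.14 (edgeR adjusted p = 0.739).

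The summed level of the 66 members was higher in batch 2 in every group. It was 329 to 391 CPM (median 362) in the 20 libraries of batch 2 and 189 to 332 CPM (median 252) in the other 24, and 19 of the 20 lay above all 24. In batch 2 the mean was 354 ± 17.9 CPM in AM132, 362 ± 18.6 CPM in AM608 and 359 ± 23.7 CPM in RCD (SD, n = 8, 8 and 4). In batch 1 it was 241 ± 21.5 CPM in AM132 and 237 ± 44.2 CPM in AM608, in batch 3 261 ± 30.9 and 244 ± 68.9 CPM (n = 4 each), and in batch 4 282 ± 30.6 CPM in RCD (n = 8). The ratio of the medians was 1.43, and it was 1.48 without the most abundant member. The miR-669 sum separated fully, at 129 to 167 CPM in batch 2 and 67.2 to 123 CPM elsewhere, whereas the miR-467 sum, at 130 to 157 and 84.4 to 151 CPM, overlapped.

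**Figure D4:**
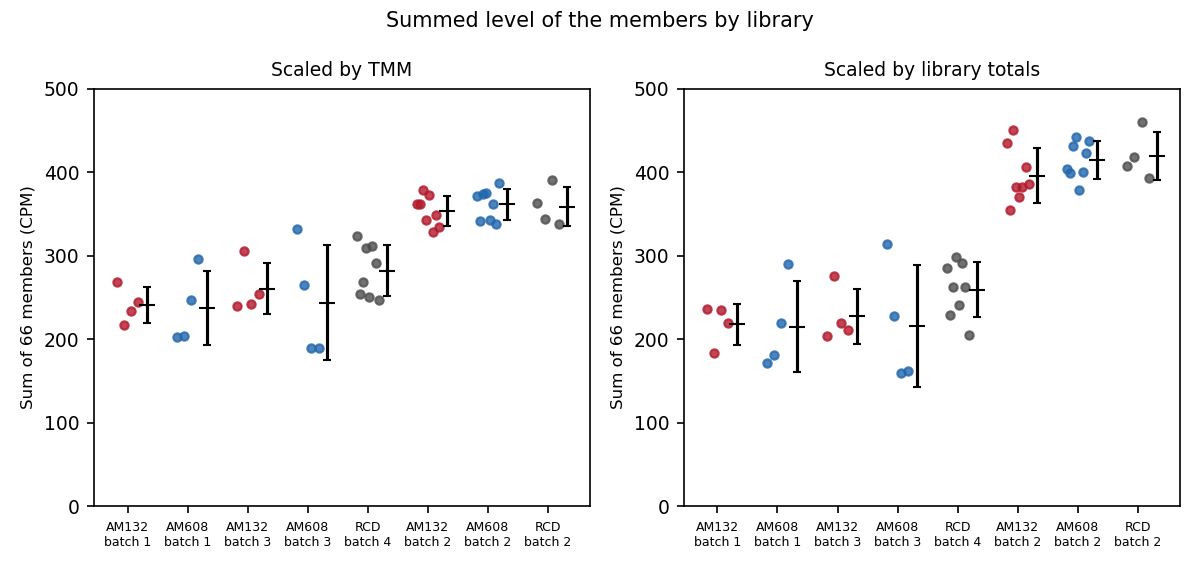
Summed CPM of the 66 members in each library by group and batch, with the mean and SD beside the points, scaled by TMM (left) and by library totals (right). All 3 groups of batch 2 stand higher, with medians of 362 against 252 CPM by TMM and 405 against 229 CPM by totals.

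Scaling bears on these sizes. TMM factors were 0.979 to 1.25 in batch 2 (median 1.16) and 0.830 to 1.00 elsewhere (median 0.892). Scaled by library totals alone, the median of all tested miRNAs shifted to 0.32 for AM batch 2 minus batch 1 and to -0.35 for RCD batch 4 minus batch 2. The members' medians were then 0.99 and -0.79, 22 of 24 members were higher in the first contrast (with 300 miRNAs higher and 100 lower over the table, against 191 and 187 by TMM), and 19 of 26 were lower in the second (with 61 higher and 280 lower, against 161 and 170). The direction of each member called by TMM was the same on both scales.

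Ratios between members in the same library do not depend on scaling, and they showed that the members did not move by 1 common factor. Per count of miR-467a-5p, the median count of miR-669a-5p with miR-669p-5p was 0.242 in batch 2 and 0.137 elsewhere. On the log2 scale it ran from -2.20 to -1.87 in batch 2 and from -3.34 to -2.26 elsewhere, so all 20 libraries of batch 2 lay above the other 24. The same ratio for miR-669c-5p was 0.596 in batch 2 and 0.596 elsewhere, and for miR-467e-5p it was 0.293 and 0.300. For miR-669b-5p it was 0.0526 and 0.0235. Of the 19 other named members, 16 had the higher median ratio in batch 2 and 3 the lower, with 6 shifts below 0.1 on the log2 scale, and only miR-669a-5p with miR-669p-5p separated the libraries fully. Many of the 19 were named because they were called between batches, so this tally describes the list and is no result about the families. The uncalled miR-466d-3p, miR-467d-5p and miR-467a-3p with miR-467d-3p are not among them.

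**Figure D5:**
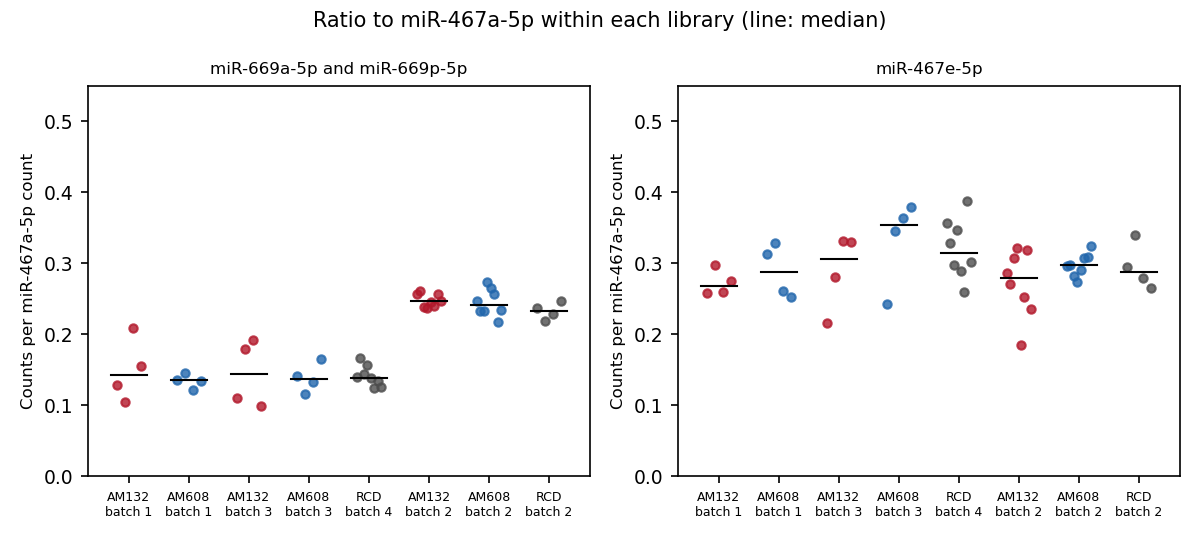
Counts per miR-467a-5p count (the row shared with miR-467b-5p) within each library, for miR-669a-5p with miR-669p-5p (left) and miR-467e-5p (right), by group and batch, with a line at each median. The left ratio has a median of 0.242 in batch 2 and 0.137 elsewhere, and the right ratio is 0.293 and 0.300.

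Markers of cell types also differed between batch 2 and the other batches. Summed over 5 neuron markers the level was 186117 to 281397 CPM in batch 2 and 284465 to 400687 CPM elsewhere, with no overlap. The 2 endothelial markers summed to 11242 to 16566 CPM in batch 2 and 15361 to 21737 CPM elsewhere, and the liver marker miR-122-5p stood at 36.2 to 63.1 and 14.7 to 43.6 CPM. The 6 choroid plexus and ciliated-cell markers summed to 3940 to 5389 CPM in batch 2 (median 4551) and 1948 to 12811 CPM elsewhere (median 2793, highest in RCD 2). Without RCD 2, 9 members and 164 of 603 miRNAs were lower in RCD batch 4. The 10 pituitary markers reached 264 to 22645 CPM in batch 2 against 226 to 698 CPM, and the 3 muscle markers 253 to 3126 against 155 to 695 CPM, both highest in AM132 6. The 3 erythroid markers summed to 330 to 1009 CPM in batch 2 and 517 to 2264 CPM elsewhere, and the 4 myeloid markers to 439 to 862 and 502 to 877 CPM. No marker of these lists was at 0 in all libraries, and their part in the difference between batches was not tested. Fewer cells of a type, less RNA per cell and whatever else differs between batches cannot be told apart in these bulk libraries. Without AM132 5, AM132 6 and AM608 5, 20 of 24 members were higher in batch 2 than in batch 1, with 187 of 562 miRNAs higher and 191 lower in the same fit.

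The related miRNAs outside the families did not share 1 pattern. miR-574-5p, the UG-repeat miRNA printed with the members, had 3.76 ± 2.46 CPM (SD, n = 44) and differed by 0.33 ± 0.31 between batch 2 and batch 1 (edgeR adjusted p = 0.349) and by 0.00 ± 0.19 in RCD (edgeR adjusted p = 0.996). miR-668-5p, which shares its seed with miR-467h, had 3.50 ± 1.78 CPM. It rose by 1.23 ± 0.22 in batch 2 of the AM libraries (edgeR adjusted p = 8.63e-06) and fell by 1.31 ± 0.31 in batch 4 of RCD (edgeR adjusted p = 0.00242). Neither passed the edgeR test in a comparison of treatment or diet. miR-1187 (1 count) and miR-3082-5p (16 counts) were too rare to test.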

How the data were processed

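Small RNA libraries were made from 200 ng of hypothalamic total RNA with the NEBNext Multiplex Small RNA set and sequenced on an Illumina NextSeq, per the labels' protocols. The authors deposited a table of raw read counts per mature miRNA, and each value used is such a deposited count. FastQC is named in the submitters' processing notes. Adapter trimming, aligner, miRNA release, genome build and the handling of reads that match several miRNAs are not given in the sources used here. Reads carry no molecular identifiers, so counting error understates the error of a level. All 44 columns matched the labels, and 0 belonged to other samples. The deposited tRNA fragment table was not used.

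The whole miRNA table was fitted with edgeR 4.0.16 (with limma 3.58.1, under R 4.3.3) after filterByExpr (minimum count 10, minimum total 15) and TMM scaling, with quasi-likelihood tests and p-values adjusted by Benjamini-Hochberg over all tested miRNAs, at 0.05. The fit for AM132 and AM608 held 32 libraries, treatment and batch, and gave the batch contrasts too; RCD was set against the obese groups in the 20 libraries of batch 2, and its own batches were compared over 12 libraries. The SE of a log2 fold change is its size divided by the root of F. For some members of low count, such as miR-669o-5p in AM608 minus RCD, the p-value is larger than this SE would give. CPM values in the text use TMM over all 44 libraries. The fits were also run on simulated counts with known changes in a single contrast at a time. The simulation held no other difference between batches, unlike these data, and nothing is concluded from it here. Sequences came from RefSeq tables of GRCm38.p6, hairpin positions from GENCODE vM21, and tables were joined with Python 3.11.15 and pandas 2.3.3.

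Alternatives were DESeq2 1.42.0, RLE scaling, no filter, at least 10 CPM, identical rows collapsed, no batch term, each batch alone, a replicate block, single RCD libraries left out, and the fit without AM132 5, AM132 6 and AM608 5. Scaling by library totals, the fit without RCD 2 and the treatment by batch test were chosen after seeing the data. The members and lists were chosen with earlier results of these data known. Members named are the 12 of highest mean CPM, those called (up to 10 per direction by p) and the 3 of smallest p in each comparison. miR-466d-3p, miR-467d-5p, miR-467a-3p with miR-467d-3p, and members named for sequence, arm or low counts were named after their values were seen. No library duplicated another (closest pair, AM132 7 and AM132 11, chi-square per degree of freedom 4.97).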

Additional observations from a re-analysis of the deposited data

Results flagged for a closer look

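Single libraries stood apart from the rest of their group and batch in 6 of 104 sets of a member, group and batch, by Dixon's criterion, which chance meets in about 1 set in 20. miR-669c-5p was highest in AM132 1 among the 4 AM132 libraries of batch 1, at 63.4 CPM with the nearest library at 40.97, and in AM132 9 among the 8 of batch 2, at 77.6 CPM with the nearest at 62.5. miR-467e-5p was lowest in RCD 12 among the 4 RCD libraries of batch 2, at 24.7 CPM with the nearest at 29.2. The other 3 came from RCD 8, the lowest of the 8 RCD libraries of batch 4: miR-466e-3p was at 2.33 CPM (nearest 5.75), the shared row of miR-466c-3p and miR-466p-3p at 2.33 CPM (nearest 5.54) and miR-466a-3p at 2.33 CPM (nearest 5.54). These 3 have nearly equal counts and amount to nearly 1 observation.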

How the results depend on the processing

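The number of members called changed by over 1.5 times in 3 results, under the filter of at least 10 CPM or scaling by library totals. With at least 10 CPM, fewer members were tested, and 6 of 6 were higher in AM batch 2 and 5 of 7 lower in RCD batch 4, against 20 of 24 and 10 of 26; over the table, 144 of 406 miRNAs were then higher and 149 lower in the first contrast, and 130 of 421 higher and 137 lower in the second. With library totals 19 were lower in RCD batch 4, with 280 of 598 miRNAs lower. The ratio of summed levels between batch 2 and the others was 1.77 with library totals, against 1.43. Leaving out 1 RCD library of batch 2 gave 9 to 10 members lower in RCD batch 4 and 0 against either obese group. Named members reversed in 3 cases, none past the test: miR-297b-5p for AM132 minus AM608 in batch 1 alone (-0.090), miR-467a-5p for AM132 minus RCD with library totals (-0.011), and miR-467c-5p for RCD batch 4 minus batch 2 without RCD replicate 9 (0.062, lowest -0.15 with another left out), where the main values were 0.18, 0.09 and -0.05; the cause was not tested. Of the other values for named members, 472 kept direction and side of the threshold, 9 passed it newly and 6 no longer passed. With the replicate number as a block, 0 members were called in AM132 minus AM608 and in both RCD comparisons; the block changed no call. Whether same-numbered libraries are pairs is not settled. Their deviations correlated between -0.377 and 0.586 over 16 AM132 and AM608 pairs, and 11 were over 0.1, the value set to count as paired. Most members have under 20 counts per library at the median, which limits what small differences can be seen.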
